A study of Mus musculus with 75 samples.

Results

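The genes described here encode the proteins of the cytosolic ribosome, chosen by symbol alone (Rpl or Rps followed by a number, with the suffixed forms such as Rpl3l and Rps4x, plus Rplp0, Rplp1, Rplp2 and Rpsa), and 82 of the 13856 genes of the deposited table matched. Of these, 49 encode proteins of the large subunit and 33 of the small subunit. Gastrocnemius muscle was sequenced from male and female Balb/c mice in 5 arms per sex. Control mice received PBS and saline, and tumour-bearing mice received C26 cells, a mouse colon carcinoma line, injected on both sides, followed from day 12 by saline, 5-fluorouracil, paclitaxel or cisplatin at 75% of the maximum tolerated dose in 2 cycles. Muscle was taken on day 25. In the order PBS, C26 with saline, 5-fluorouracil, paclitaxel, cisplatin, the numbers of libraries were 7, 7, 8, 7 and 6 in females and 8, 8, 8, 6 and 8 in males. All drug-treated mice carried C26 cells, so a drug is compared here with C26 saline, and mice given a drug without C26 cells were not analysed here. 5-fluorouracil blocks thymidylate synthesis and enters RNA, paclitaxel stabilises microtubules, and cisplatin crosslinks DNA.

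A ribosome holds 1 copy of most of these proteins around its RNA core, and the genes are therefore usually expressed together. Many of their messenger RNAs start with a C followed by a run of pyrimidines, the terminal oligopyrimidine (TOP) motif, through which the mTOR pathway controls their translation. In skeletal muscle the amount of ribosomes is one limit on protein synthesis, and it changes during growth and wasting. A few members have paralogues with restricted expression: Rpl3l is a muscle-specific relative of Rpl3, which lies near the peptidyl transferase centre, and Rpl22l1 and Rps27l are relatives of Rpl22 and Rps27. The genome also holds many processed copies of these genes, and reads from a gene and its copy can be hard to tell apart.

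The coding sequences below show how close the paralogues and copies named in the results are to one another. They come from GENCODE vM21 (build GRCm38), are given 5′ to 3′, and span coding positions 52 to 81 of Rpl3 (chromosome 15), counted from the A of its start codon, with the aligned bases of the copy Rpl3-ps1 (chromosome X) and of Rpl3l (chromosome 17). Capitals mark bases that differ from Rpl3.
Rpl3: cctcgcaagcgcagcagccggcatcgtggg
Rpl3-ps1: cctcgAaagcgcagcagccggcatcgtggg
Rpl3l: ccCcAcaagAgGagcCgGcggcaCcgGggC
Over the whole coding sequence of 1209 bases, Rpl3-ps1 differed from Rpl3 at 2 bases (99.8% identity), whereas Rpl3l shared 74.4% of 1205 aligned bases. The same holds for Rps27 (chromosome 3), shown at coding positions 6 to 35 with the copy Rps27rt and the paralogue Rps27l, both on chromosome 9, where capitals mark differences from Rps27.
Rps27: tctcgcaaaggatctccttcatccctctcc
Rps27rt: tctcgcaaaggatctccttcatccctctcc
Rps27l: CctGgcTaGAgatctGTtAcaCccTtcCTT
Rps27 and Rps27rt were identical over all 252 coding bases, and Rps27l matched 76.2% of them. Rpl22 and Rpl22l1 shared 70.2% of 366 aligned bases. A read therefore tells a paralogue from its parent gene in most places but hardly separates Rpl3 from Rpl3-ps1, and within the coding sequence it cannot separate Rps27 from Rps27rt.

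RefSeq start sites (GRCm38.p6) were listed for 61 of the 82 members. The windows below run from 20 bases before to 10 bases after a listed start, on the strand of the gene, for 4 members that recur in the results, and capitals mark the longest run of C or T.
Rps6 (chr4:86857358-86857387, minus strand): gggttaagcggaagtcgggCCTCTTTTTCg
Rpl14 (chr9:120571497-120571526, plus strand): cggcagggcgggCCCTCTCTCTTCTCgctg
Rpl22l1 (chr3:28805488-28805517, plus strand): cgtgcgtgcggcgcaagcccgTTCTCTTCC
Rpl3l (chr17:24727806-24727835, plus strand): cagctgagtgTTCTagctctgtcatttgac
The first 3 windows hold runs of 10, 14 and 9 pyrimidines, and that of Rpl3l a run of 4. A run of 7 or more C or T in this window was found in 33 of 61 members (54.1%) and in 22.4% of 10352 other genes of the table. The letters CCGGAAG, an ETS-type motif read on both strands of the 300 bases from 250 before to 50 after the start, were found in 25 members (41.0%) and in 18.7% of the other genes. Members with and without the run had nearly the same median change with the tumour, 0.37 and 0.37 in females and 0.29 and 0.28 in males (log2, 33 and 28 members). A match is a description of letters only.

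The deposited values are on a log2 scale. Estimated counts recovered from them came to 11.4 to 40.5 M per library (M, mega; median 22.5 M), and no member was at an estimated count of 0 in any library. All 8 fibre markers fixed for this muscle (such as Acta1, Ckm and Myh4) were measured in every group. Libraries differed in how their values followed the GC content of transcripts. This GC slope, in log2 units per SD of transcript GC content over 10555 genes without the members, ran from -0.26 to 0.55 with a median of -0.10, and it exceeded 0.1 in 19 libraries: 4 of 6 male paclitaxel, 4 of 8 male 5-fluorouracil, 2 of 8 male cisplatin, 2 of 8 male PBS, 0 of 8 male C26 saline, 2 of 7 female PBS, 1 of 7 female C26 saline, 2 of 8 female 5-fluorouracil, 2 of 7 female paclitaxel and 0 of 6 female cisplatin. In every group that held both kinds, the libraries of high slope had the higher mean of the members' median. In male PBS that mean was 7.13 in the 2 libraries of high slope and 6.68 in the other 6, and in male cisplatin 7.28 in 2 and 6.74 in 6. The mitochondrially encoded genes took a median of 4.69% of the linear total in the 2 male PBS libraries of high slope and 12.3% in the other 6. Values with the slope as a covariate, or without these 19 libraries, stand beside the main results below.

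**Figure D1:**
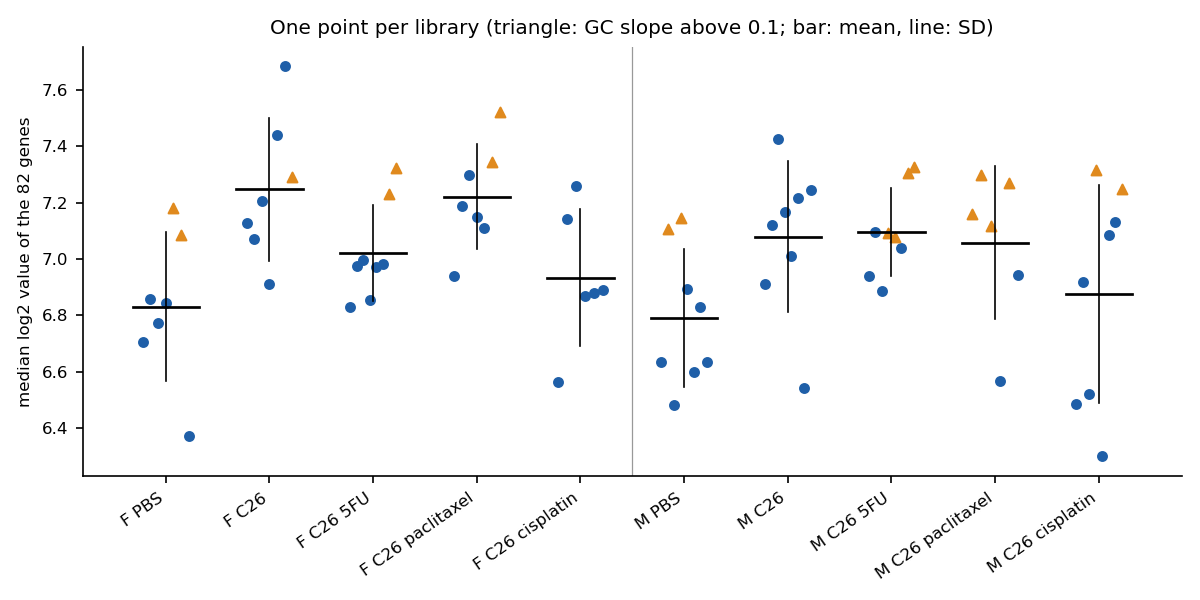
Each point is the median log2 value of the 82 ribosomal protein genes in 1 library, by group (F, female; M, male), with triangles for libraries of GC slope above 0.1, a bar for the group mean and a line for the SD. The C26 saline means, 7.25 in females and 7.08 in males, lie above the PBS means of 6.83 and 6.79, with overlap between libraries.

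Ribosomal protein genes held a small part of the linear total of a library, which follows counts and is not corrected for transcript length. Member transcripts had a median length of 740 bases, against 2760 for all genes, so this part is not a share of molecules. The 82 genes together, without copies that are not members, took 0.78 to 1.94% of the linear total. The mean was 1.17% ± 0.19 (SD, n = 7) in female PBS and 1.02% ± 0.15 (n = 8) in male PBS. The mean in C26 saline was 1.51% ± 0.24 (n = 7) in females and 1.32% ± 0.21 (n = 8) in males. Per kilobase of transcript, over the PBS libraries, the highest levels were those of Rplp1 (log2 level 9.32 ± 0.56 SD), a protein of the stalk that recruits elongation factors, of Rpl41 (8.81 ± 0.40), a very short basic protein of the large subunit, and of Rps15 (8.65 ± 0.44), a small-subunit protein near the decoding site. Rpl41 and Rps15 did not differ beyond their SD, and Rplp1 lay above Rps15 by more than the SD of either. The lowest were Rps2 (1.10 ± 0.26), Rpl3 (1.32 ± 0.28), Rpl12 (2.49 ± 0.29), Rpl29 (2.57 ± 0.94) and Rpl5 (2.79 ± 0.34). Rps2 and Rpl3 did not differ beyond their SD, and both lay below Rpl12 by more than theirs. The members farthest from the median member were Rps2, Rps18 and Rpl29. Within groups the spread of a member ran from an SD of 0.14 for Rps3 to 2.14 for Rps27, with a median of 0.34.

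Several of the low levels came with a copy that was high. Of the 82 members, 35 had at least 1 near-identical copy among the genes of the table (at least 95% identity over at least 80% of the coding sequence), 46 copies in all. Rpl3 averaged 2.28 (log2) over all libraries and Rpl3-ps1 5.46, so that Rpl3 held 10.1% of their summed level. Rps18, a protein of the small-subunit head, held 2.83% of the level summed with its 3 copies, Rpl29 held 9.95%, and Rps27 held 14.5% of the level shared with Rps27rt. Rpl10 averaged 6.18 and its copy Rpl10-ps3, identical in coding sequence, 7.31, and Rpl10 held 32.1% of their summed level. Rps2 stayed low when summed with its 2 copies, at 1.68 against 1.19 alone. For Rpl12 and Rpl5, also among the lowest members, no such copy was found among the genes of the table. The level of Rps27 was split within groups. It ran from 0.21 to 7.03 in the 7 female C26 saline libraries and from -0.08 to 5.44 in the 8 male cisplatin libraries, and every group but female paclitaxel and female cisplatin had libraries on both sides of 3. Summed with Rps27rt, the SD within groups fell from 2.14 to 0.39, and that of Rpl29 with its copy from 1.20 to 0.34. That of Rpl10 with its copy fell from 0.40 to 0.20. For these members the level alone and the level summed with copies differ. Both are given where the results turn on them, except for Rpl10, whose changes below are those of the gene alone. Changes of Rpl10 with its copy are not reported here.

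**Figure D2:**
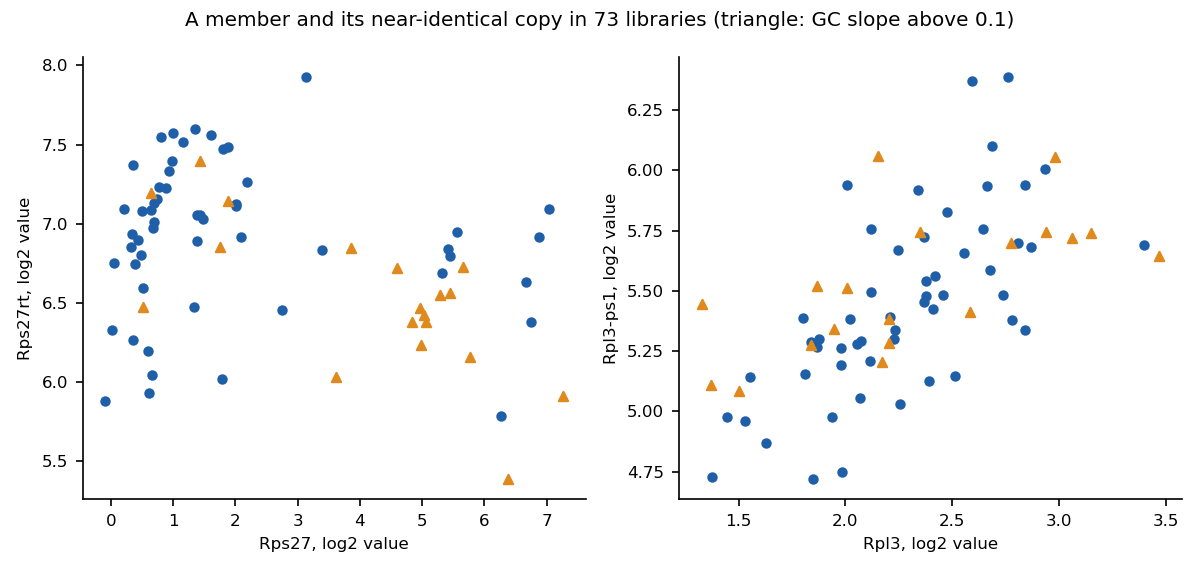
Each point is 1 of 73 libraries, with the log2 value of a member on the horizontal axis and that of its near-identical copy on the vertical axis (triangles, GC slope above 0.1). Rps27 spreads from near 0 to above 7 while Rps27rt lies mostly between 6 and 8, and Rpl3 lies below Rpl3-ps1 in every library.

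The first question of the design was what C26 tumours did to these genes in muscle. In females 11 of 82 members rose and 0 fell, against 4.14% of all genes called as rising and 2.56% as falling (limma, adjusted p under 0.05, which is what called means below). The median change of the members was 0.38 (log2) and 80 of 82 were higher, where the median of all genes was -0.01. Rpl3 had the largest called change. Its log2 value was 1.33 to 2.12 (median 1.84) in the 7 PBS libraries and 2.41 to 3.06 (median 2.69) in the 7 C26 saline libraries. The groups did not overlap, and the change was 0.93 ± 0.19 (SE, adjusted p = 0.000638). Next came Rpl17, which lines the exit tunnel (0.48 ± 0.13, adjusted p = 0.0134), Rpl32 (0.47 ± 0.13, adjusted p = 0.0201) and Rpl24, which takes part in a bridge between the subunits (0.44 ± 0.09, adjusted p = 0.000495). Rpl24 ran from 7.26 to 7.59 in PBS and from 7.60 to 8.21 in C26 saline, again without overlap. Others among the called members were Rps4x, Rpl22, Rpl6, Rpl13a, Rpl4 and Rpl14, at 0.30 to 0.38. Of the 11 calls, those of Rpl3, Rpl6, Rpl22 and Rpl24 held whichever of the 14 libraries was left out, and that of Rpl14 was lost without any 1 of 7 (adjusted p up to 0.083). Those of Rpl13a, Rpl17, Rps4x and Rpl32 were lost without C26 saline replicate 6 or PBS replicate 7, and that of Rpl32 also without PBS replicate 1. That of Rpl4 was lost without C26 saline replicate 6. Rps27 had the largest change of all, 2.40 ± 1.11, and was not called (adjusted p = 0.211). Leaving out 1 library moved the count of 11 to 4 (without C26 saline replicate 6), 5 (without PBS replicate 7) or 19 (without C26 saline replicate 4 or replicate 7, the latter with a GC slope of 0.46).

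In males 16 members rose and 0 fell, against 13.1% of all genes called as rising and 13.0% as falling. Their median change was 0.28 and 78 of 82 were higher, with a median of 0.00 for all genes. Rpl3 again led. It ran from 1.37 to 2.07 (median 1.84) in the 8 PBS libraries and from 2.12 to 3.40 (median 2.77) in the 8 C26 saline libraries, without overlap, a change of 0.95 ± 0.18 (adjusted p = 3.1e-05). Rps6, the small-subunit protein phosphorylated by S6 kinase, ran from 6.83 to 7.27 in PBS and from 7.46 to 7.95 in C26 saline, which do not overlap either (0.52 ± 0.13, adjusted p = 0.0014). Rpl23, at the interface of the subunits, changed by 0.50 ± 0.16 (adjusted p = 0.0147), and Rps19, the first gene found mutated in Diamond-Blackfan anaemia, by 0.50 ± 0.16 (adjusted p = 0.015). The other called members changed by 0.27 to 0.46 (Rpl7a, Rpl13a, Rps9, Rpl22, Rps23, Rpl4, Rps3, Rpl24, Rps4x, Rpl14, Rpl7 and Rpl6). Of the 16 calls 12 held without any 1 library, whereas that of Rps9 was lost in 13 of 16 such fits (adjusted p up to 0.105), of Rpl7 in 6, of Rps23 in 4 and of Rps19 without PBS replicate 3. Without C26 saline replicate 7 the count was 30. The share of members called in males, 19.5%, stood closer to the share of all genes than it did in females, 13.4% against 4.14%.

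The tumour lists of the sexes shared 8 members: Rpl3, Rpl4, Rpl6, Rpl13a, Rpl14, Rpl22, Rpl24 and Rps4x. They are 72.7% of the female and 50.0% of the male list. Over all genes, 471 rises were shared, which are 82.2% of the female and 26.0% of the male list of rises. Outside the lists the direction was also shared, since 77 of 82 members were higher with C26 in both sexes, as were 5058 of 13856 genes. Across the 82 members the female and male changes had r = -0.18 (Spearman's rho 0.01), where all 13856 genes had r = 0.68 (rho 0.65). Genes are not independent replicates, and each sex has its own libraries. No member had a sex difference in its tumour response by limma's interaction term: 0 were called, against 0.0361% of all genes, and 0 had an unadjusted p under 0.05. In PBS mice 0 members differed between the sexes, against 3.39% of all genes, and 1 had an unadjusted p under 0.05 (Rps3).

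With the GC slope as a covariate, 56 members rose and 0 fell with C26 in females (7.72% of all genes rose and 6.05% fell), and 49 rose and 1 fell in males (21.3% and 19.4%). The medians, 0.36 and 0.28, were almost those of the group means alone. Without the 19 libraries of high slope, 65 rose and 0 fell in females (median 0.47, against 6.97% and 4.97% of all genes), and 52 rose and 1 fell in males (median 0.35, against 18.4% and 18.0%). The change of Rpl3 was 0.92 and 0.95 with the covariate. Across the 82 members the change did not follow transcript GC content, with r = 0.04 in females and -0.03 in males, and the medians of the members of low, middle and high GC content (28, 27 and 27 members) were 0.37, 0.38 and 0.40 in females and 0.29, 0.27 and 0.25 in males. Against log2 transcript length r was -0.36 in females and 0.19 in males. When each library was centred on the median of its own members, an alternative chosen after seeing the data, 1 member was higher (Rpl3, 0.52) and 3 lower (Rpl3l, Rpl7l1 and Rpsa) with C26 in females, against 1.64% and 32.3% of all genes. In males 2 were then higher (Rpl3, 0.66, and Rps19) and 2 lower (Rpl3l and Rpl38), against 4.09% and 27.1%. When copies were added to their members, also chosen then, 16 members rose and 0 fell in females (4.18% and 2.58% of all genes) and 18 rose and 0 fell in males (13.1% and 13.1%), among them Rps27 at 0.76 ± 0.21 (adjusted p = 0.0137) and 0.67 ± 0.19 (adjusted p = 0.00589).

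**Figure D3:**
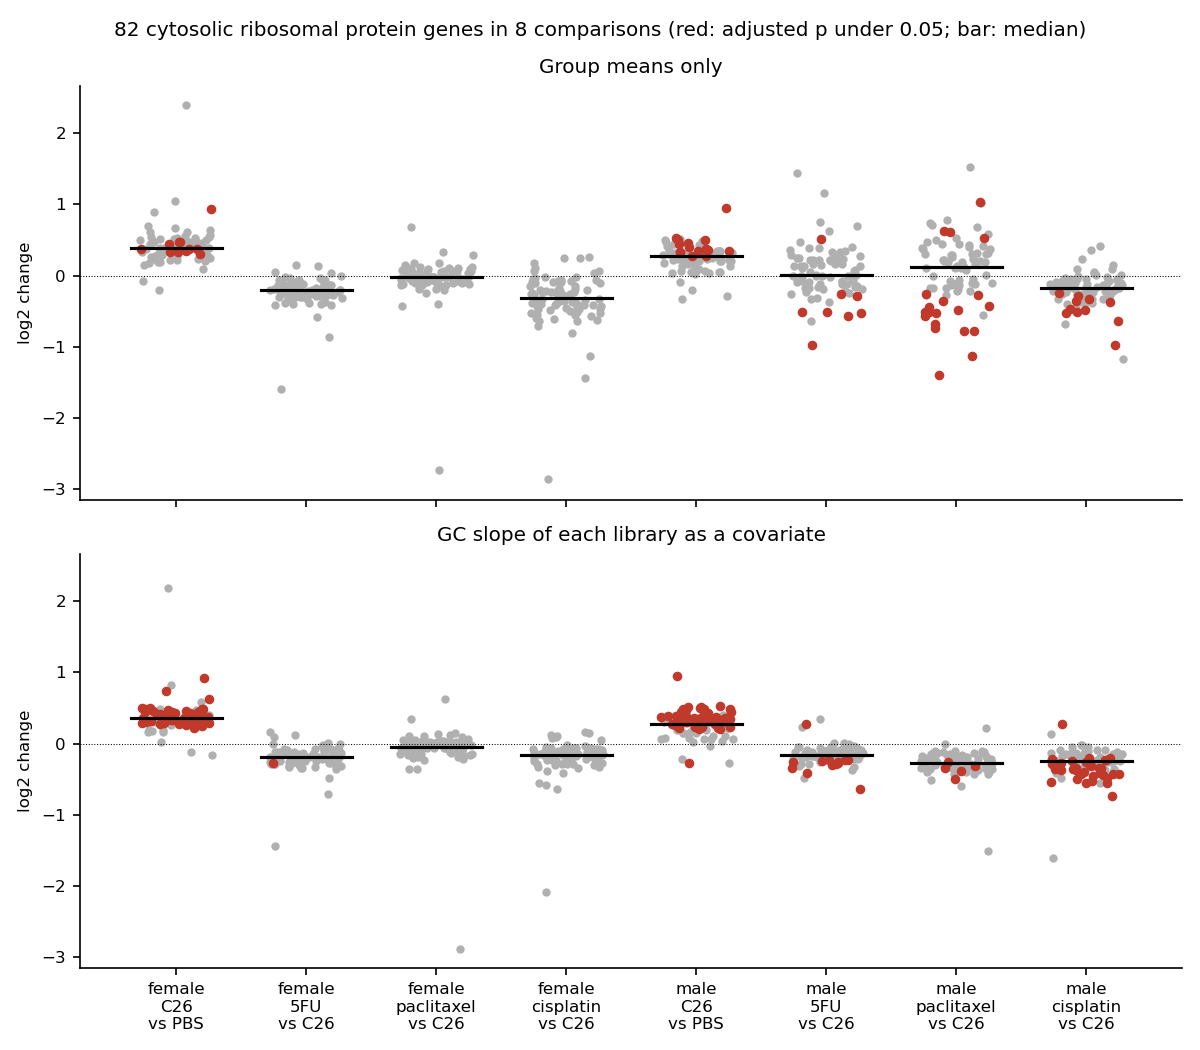
Each point is the log2 change of 1 of the 82 genes in 1 of the 8 comparisons, from group means alone (top) and with the GC slope of each library as a covariate (bottom); red points passed an adjusted p of 0.05 and the bar is the median. With C26 nearly all points lie above 0 in both panels, and the male paclitaxel points, spread on both sides of 0 at the top with a median of 0.12, lie below 0 at the bottom with a median of -0.27.

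Markers of macrophages and neutrophils rose with the tumour too, and some of those of B cells fell. Of 10 macrophage markers 6 rose in females and 8 in males, and the summed linear level of the list was 66.9 to 131.0 in female PBS, 133.6 to 241.3 in female C26 saline, 70.2 to 105.0 in male PBS and 94.0 to 251.7 in male C26 saline. Of 7 measured neutrophil markers, out of 10 fixed, 6 rose in females and 7 in males, with summed levels of 1.10 to 3.92 and 1.43 to 12.3 in female and male PBS, and of 5.73 to 37.4 and 10.2 to 33.2 in C26 saline. No marker of either list was at 0 throughout a group. Of 4 measured B-cell markers, out of 7 fixed, 2 fell in females (list median -1.19) and 1 in males (-0.50). Their summed level was 39.6 to 53.7 in female PBS, 18.0 to 34.7 in female C26 saline, 68.2 to 139.2 in male PBS and 16.1 to 34.1 in male C26 saline, with no overlap in either sex. Of the 8 fibre markers 0 were called in females and 2 fell in males, where they summed to 138168 to 208392 in PBS and 89660 to 198277 in C26 saline. Of 5 measured erythroid markers, out of 6, 2 rose in females and 1 in males. The part of these cells in the ribosomal protein result was not tested, and in whole muscle a change in the number of cells of a type cannot be told apart from a change in RNA per cell.

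In females, no member was called with any drug against C26 saline. With 5-fluorouracil 78 of 82 were lower, with a median of -0.20 (0 called with limma, against 0.152% of all genes rising and 1.2% falling, and 5 with an unadjusted p under 0.05). The smallest p values were those of Rpl24 (-0.27 ± 0.08, adjusted p = 0.0955) and Rpl32 (-0.31 ± 0.13, adjusted p = 0.338). With cisplatin 74 of 82 were lower, with a median of -0.31 (0 called, against 0.346% rising and 1.31% falling, and 26 with an unadjusted p under 0.05), led by Rpl3 (-0.60 ± 0.20, adjusted p = 0.095) and Rpl17 (-0.40 ± 0.13, adjusted p = 0.109). With the GC slope as a covariate this median was -0.16, and 0 members were called with cisplatin (1.13% of all genes rose and 1.86% fell), whereas 1 fell with 5-fluorouracil (0.938% and 2.11%). Without the libraries of high slope, 5 members fell and 0 rose with cisplatin (3.83% and 2.71% of all genes). With paclitaxel the median was -0.01, 35 of 82 were higher, and 0 members and 0% of all genes were called (2 members with an unadjusted p under 0.05). Rps27 (-2.73 ± 1.11, adjusted p = 0.671) and Rps18 (0.68 ± 0.27, adjusted p = 0.64) had the smallest p there, and both are members with copies. The macrophage and neutrophil lists fell with 5-fluorouracil in females, 6 of 10 and 6 of 7, 1 of 10 and 2 of 7 fell with cisplatin, and 0 of either were called with paclitaxel. Their part in the members' values was not tested.

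The male drug comparisons use the same 8 C26 saline libraries as the male tumour comparison, so that opposite signs in the tumour and drug comparisons do not come from separate data; the same holds in females. With 5-fluorouracil in males 1 rose and 7 fell, against 11.3% and 12.0% of all genes, and the median was 0.00. The GC slope exceeded 0.1 in 4 of 8 libraries with the drug and 0 of 8 of C26 saline, so slope and drug cannot be fully told apart. Across the 82 members the changes followed transcript GC content (r = 0.40, and -0.07 with the slope as a covariate). Rpl3l rose by 0.51 ± 0.14 (adjusted p = 0.00599), running from 8.08 to 9.20 in C26 saline and from 8.76 to 9.55 with the drug. Rpl22l1 fell by 0.98 ± 0.32 (adjusted p = 0.0224), Rpl3 by 0.57 ± 0.18 (adjusted p = 0.0165), Rpl10, which helps build the peptidyl transferase site, by 0.52 ± 0.20 (adjusted p = 0.0447), and Rpl23 by 0.51 ± 0.16 (adjusted p = 0.0182). Rpl10 is given here without its identical copy Rpl10-ps3, as with the other drugs. Rps6 also fell, from 7.46 to 7.95 in C26 saline to 6.50 to 7.57 with the drug (-0.51 ± 0.13, adjusted p = 0.00348), as did Rpl7 and Rpl22. With the covariate 1 rose and 12 fell (10.5% and 11.7% of all genes), with a median of -0.16, and Rpl3l (0.27, adjusted p = 0.0232), Rps6 (-0.31) and Rpl3 (-0.63) were called, but Rpl22l1 (-0.37, adjusted p = 0.137) and Rpl23 (-0.22, adjusted p = 0.107) were not. The count of 8 called was 4 without C26 saline replicate 3, 5 without C26 saline replicate 6, 3 without 5-fluorouracil replicate 4 (GC slope 0.53) and 4 without 5-fluorouracil replicate 7. The calls of Rpl3l and Rps6 held whichever of the 16 libraries was left out. That of Rpl10 was lost in 9 of 16 such fits (adjusted p up to 0.198), of Rpl7 in 5, of Rpl22 in 3, of Rpl22l1 and Rpl23 without 5-fluorouracil replicate 4 or 7, and of Rpl3 without C26 saline replicate 3. Beside these calls, 4 of 10 macrophage and 7 of 7 neutrophil markers fell and 2 of 8 fibre markers rose, and their part was not tested.

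With paclitaxel in males the calls went both ways and depended on the GC slope. The slope exceeded 0.1 in 4 of 6 paclitaxel and 0 of 8 C26 saline libraries, so slope and drug cannot be fully told apart. In this comparison 4 members rose and 16 fell, against 13.5% and 18.5% of all genes. Rplp1 ran from 7.46 to 8.65 in C26 saline and from 8.22 to 10.1 with the drug (1.03 ± 0.36, adjusted p = 0.0241), and Rpl41 (0.62 ± 0.24), Rpl3l (0.61 ± 0.15) and Rpl13 (0.53 ± 0.21) also rose. Rpl22l1 fell most, from 4.16 to 5.31 to 2.39 to 4.26 (-1.40 ± 0.35, adjusted p = 0.00332). Rps13 fell by 1.13 ± 0.30, Rpl5, which carries 5S rRNA into the ribosome with Rpl11, by 0.78 ± 0.26, and Rpl23 by 0.77 ± 0.18, whereas Rpl11 was at 0.31 ± 0.20 (adjusted p = 0.217). The changes followed transcript GC content across the 82 members (r = 0.53), with medians of -0.17, 0.20 and 0.23 in the members of low, middle and high GC content. With the slope as a covariate r was 0.01, 0 members rose, 5 fell (1.67% and 1.92% of all genes), 1 of 82 was higher, and the median was -0.27. Rplp1 was then at -0.14, Rpl41 at -0.12, Rpl13 at -0.14 and Rpl5 at -0.01. The falls of Rpl22l1 (-0.40, adjusted p = 0.268), Rps13 (-0.35, adjusted p = 0.38), Rpl23 (-0.29, adjusted p = 0.122) and Rps6 (-0.35, adjusted p = 0.0506), and the rise of Rpl3l (0.21, adjusted p = 0.231), were not called with the covariate. Without the libraries of high slope, which leaves 2 paclitaxel libraries, 0 rose and 2 fell (2.54% and 2.67% of all genes), with a median of -0.27. Rps6 was called there (-0.51, adjusted p = 0.0118), and Rpl22l1 (-0.57, adjusted p = 0.126), Rps13 (-0.49, adjusted p = 0.187) and Rpl23 (-0.35, adjusted p = 0.11) were not. Rps13 was at 0.04 when summed with its copy. Of the markers, 1 of 10 for macrophages fell, 0 of 7 for neutrophils were called and 3 of 8 for fibres rose. Of the 20 calls 12 held whichever of the 14 libraries was left out, but that of Rpl13 was lost in 11 of 14 such fits, of Rpl41 in 7, of Rplp1 and Rpl14 in 4 each, of Rpl5 without paclitaxel replicate 1 or 5, of Rpl24 without C26 saline replicate 3 or paclitaxel replicate 4, and of Rpl10 and Rps3a1 without paclitaxel replicate 1. The count of 20 was 13 without paclitaxel replicate 1, 35 without replicate 4 and 31 without replicate 6. Rescaling libraries to equal totals moved the median of all genes by -0.17, -0.13 and -0.17 in the male 5-fluorouracil, paclitaxel and cisplatin comparisons. In this paclitaxel comparison 2 members then rose and 23 fell. The share of all genes called after rescaling is not reported here, so these counts have no background beside them.

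**Figure D4:**
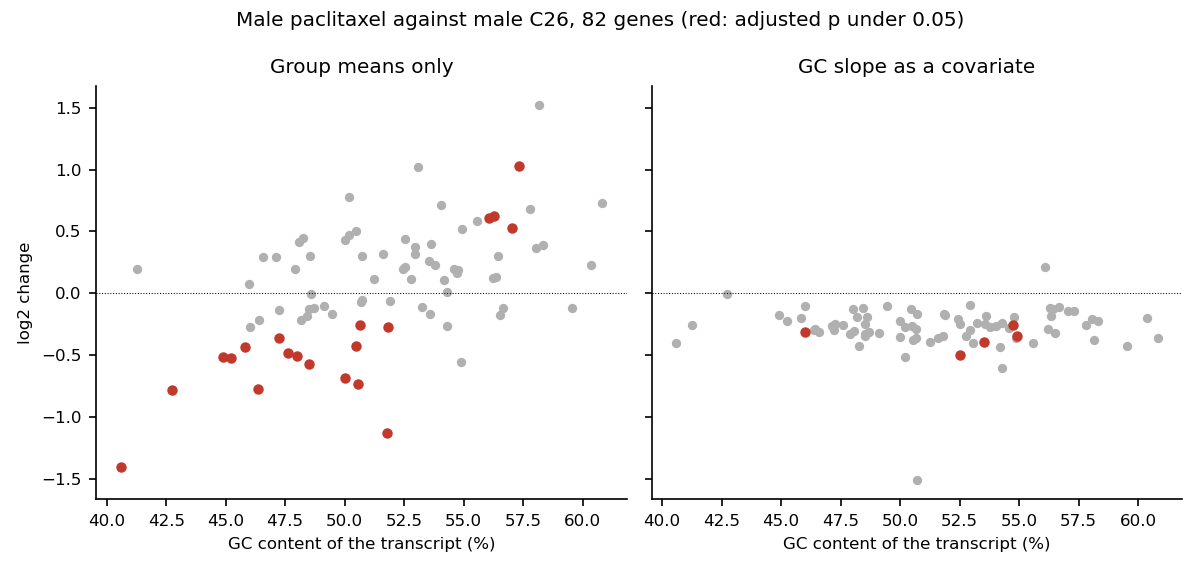
Log2 change of each of the 82 genes in male paclitaxel against male C26 saline (vertical axis) against the GC content of its transcript in percent (horizontal axis), from group means (left) and with the GC slope as a covariate (right), red where the adjusted p is under 0.05. The points rise with GC content on the left (r = 0.53) and not on the right (r = 0.01). Slope and drug cannot be fully told apart in this comparison.

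With cisplatin in males the calls went one way. Here 11 fell and 0 rose, against 8.23% of all genes falling and 7.66% rising, 72 of 82 were lower, and the median was -0.18. Rpl22l1 fell by 0.97 ± 0.32 (adjusted p = 0.0291), Rpl10 by 0.64 ± 0.20 (adjusted p = 0.0178), Rpl3 by 0.52 ± 0.18 (adjusted p = 0.0358) and Rps6 by 0.51 ± 0.13 (adjusted p = 0.00357). Rps6 ran from 6.69 to 7.38 with cisplatin, below all 8 C26 saline libraries. Rps27a, which is made as a fusion with ubiquitin, fell by 0.48 ± 0.14 (adjusted p = 0.0112), and Rpl23, Rpl22, Rpl13a, Rpl14, Rpl24 and Rps3 by 0.25 to 0.47. With the covariate 34 fell and 1 rose (15.8% and 12.8% of all genes), with a median of -0.25, and without the libraries of high slope 36 fell and 0 rose (13.3% and 11.3%). Of the 11 calls 7 held whichever of the 16 libraries was left out. That of Rpl3 was lost in 8 of 16 such fits (adjusted p up to 0.113), of Rpl23 in 7, of Rpl22l1 in 4 and of Rpl10 without cisplatin replicate 4. With copies added 11 fell and 0 rose (8.25% and 7.68%), among them Rps27 at -0.66 ± 0.19 (adjusted p = 0.0117). Beside these falls, 3 of 10 macrophage and 7 of 7 neutrophil markers fell with cisplatin in males, and 2 of 8 fibre markers rose. The part of these lists in the result was not tested.

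Drug-treated muscle was also set against PBS, with the same PBS libraries as in the tumour comparison. In females 0 members were called with 5-fluorouracil (0.383% of all genes called in either direction, 7 members with an unadjusted p under 0.05) or cisplatin (0.209%, 8 members), and 5 rose with paclitaxel (2.89% of genes rose and 1.69% fell): Rpl3, Rpl6, Rpl13a, Rpl14 and Rpl24. The medians were 0.19, 0.08 and 0.39, and that of cisplatin was 0.18 with the covariate (2 called, against 0.686% of genes). In males 0 were called with 5-fluorouracil (4.76%, 43 members with an unadjusted p under 0.05) or cisplatin (0.902%, 4 members), and with paclitaxel 34 rose and 5 fell (16.9% and 20.6% of genes). With the covariate those 39 became 2 that rose and 0 that fell, against 4.77% and 4.29% of genes, with a median of 0.02 in place of 0.39. Without the libraries of high slope 0 were called (0.0505% and 0.0217% of genes). The female paclitaxel count went the other way, to 36 that rose and 0 that fell with the covariate (5.54% and 4.04%) and 18 and 0 without those libraries (3.15% and 1.78%). No member was called for a difference between the sexes in the response to a drug, by limma's interaction terms (0% of all genes with each drug), although 6 with 5-fluorouracil, 13 with paclitaxel and 5 with cisplatin had an unadjusted p under 0.05. Among them was Rpl22l1 with paclitaxel (-1.46 ± 0.49, male minus female, adjusted p = 0.226).

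The difference between Rpl3 and its muscle paralogue Rpl3l was lower with the tumour in both sexes. Either protein can take the same position in the ribosome. Their difference within a library, Rpl3l minus Rpl3 in log2 units, does not depend on how libraries are scaled. It was 7.08 ± 0.44 (SD, n = 7) in female PBS and 6.07 ± 0.19 (n = 7) in female C26 saline. All 7 tumour libraries lay below all PBS libraries, a difference of -1.0 (exact permutation test, two-sided, adjusted p = 0.00466 over 24 tests). In males it was 7.04 ± 0.43 (n = 8) in PBS and 5.81 ± 0.40 (n = 8) in C26 saline, again with all 8 tumour libraries below all PBS libraries (-1.23, exact permutation test, adjusted p = 0.00373). The level of Rpl3l itself was not called with C26 in either sex (-0.07 ± 0.15, adjusted p = 0.868, in females and -0.28 ± 0.14, adjusted p = 0.138, in males).

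In males the difference was higher with each drug than in C26 saline: 6.89 ± 0.42 (n = 8) with 5-fluorouracil (1.08 higher, exact permutation test, adjusted p = 0.00373), 6.69 ± 0.39 (n = 8) with cisplatin (0.88 higher, exact test, adjusted p = 0.00497) and 6.48 ± 0.28 (n = 6) with paclitaxel (0.67 higher, exact test, adjusted p = 0.016). In females it was higher with cisplatin, 6.66 ± 0.14 (n = 6), where all 6 libraries lay above all 7 of C26 saline (0.58 higher, exact test, adjusted p = 0.00497). The female values with 5-fluorouracil, 6.51 ± 0.54 (n = 8), and paclitaxel, 6.31 ± 0.45 (n = 7), did not pass (0.43 and 0.24 higher, exact permutation tests, adjusted p = 0.134 and 0.349), and without the libraries of high slope they were 0.19 and 0.10 higher (exact tests, adjusted p = 0.356 and 0.618). Without the libraries of high GC slope the tumour differences were -0.82 and -1.02 and still passed, and male paclitaxel, with 2 libraries left, was at 0.65 (exact permutation test, adjusted p = 0.237, where 2 against 8 cannot give an unadjusted p below 0.0444). With Rpl3-ps1 added to Rpl3 the tumour differences were -0.65 and -0.97 (exact tests, adjusted p = 0.014 and 0.0112), female 5-fluorouracil passed (0.48, adjusted p = 0.0488), and female cisplatin did not (0.30, adjusted p = 0.147). With its copy, Rpl3 rose by 0.58 ± 0.14 with C26 in females and 0.69 ± 0.13 in males, and fell by 0.41 ± 0.13 with 5-fluorouracil and 0.37 ± 0.13 with cisplatin in males.

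**Figure D5:**
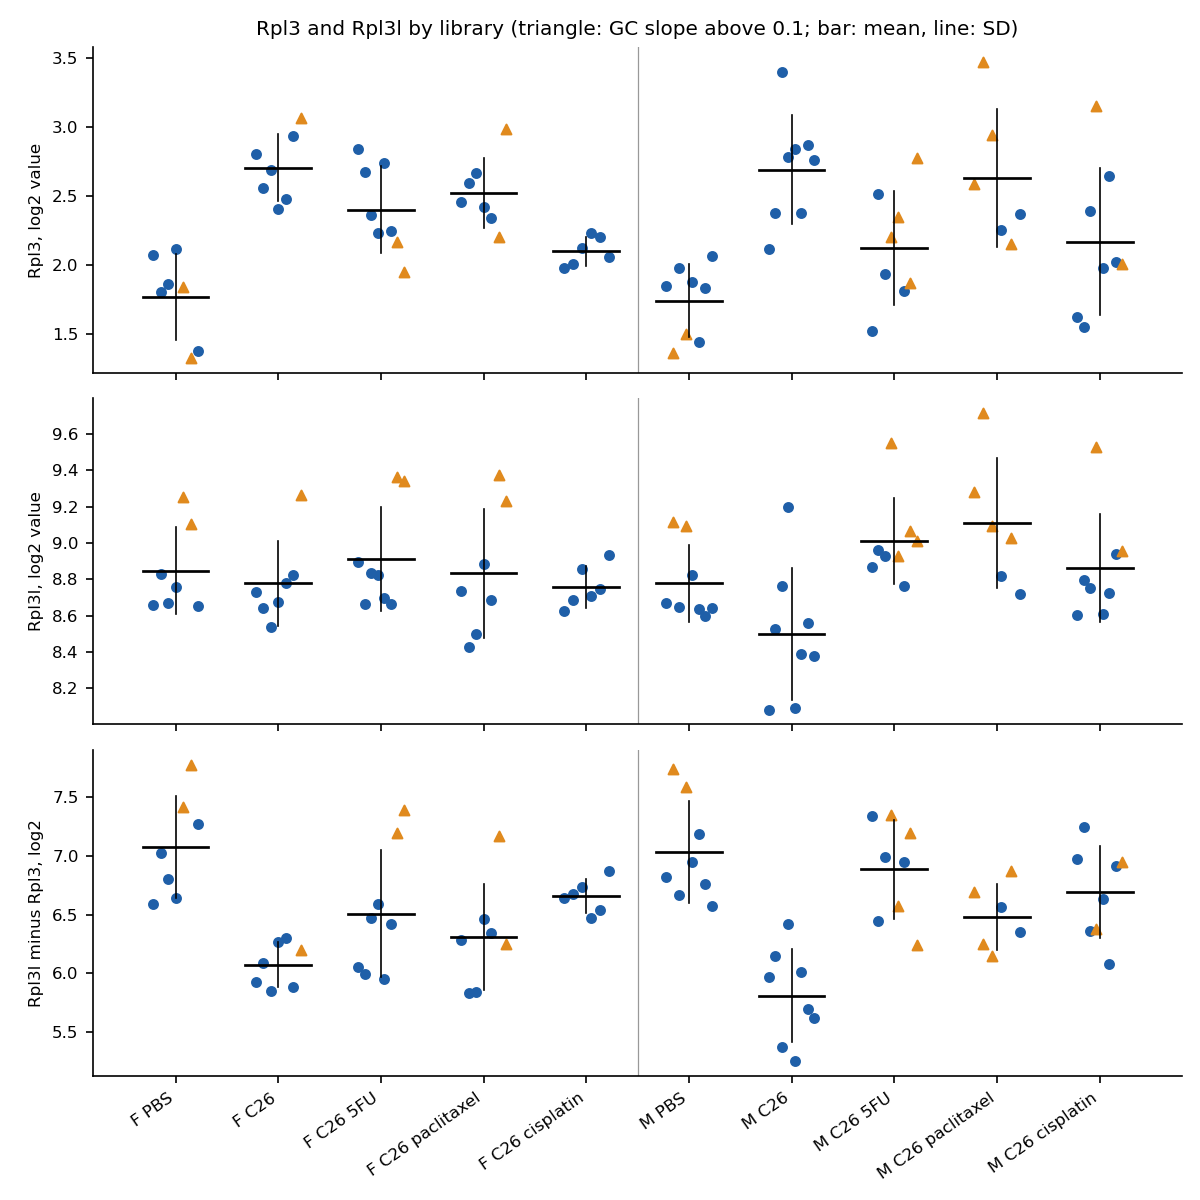
Log2 value of Rpl3 (top), of Rpl3l (middle) and their difference (bottom) in each library by group (F, female; M, male), with triangles for a GC slope above 0.1, bars for means and lines for SD. In the bottom panel the C26 saline points lie below the PBS points in both sexes without overlap, and the male drug groups lie higher than male C26 saline on average.

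Rpl22, an RNA-binding protein that also acts outside the ribosome, rose with C26 in both sexes (0.37 ± 0.09 and 0.38 ± 0.09, adjusted p = 0.00704 and 0.000543) and fell with each drug in males (-0.26 ± 0.09, -0.36 ± 0.09 and -0.36 ± 0.09 with 5-fluorouracil, paclitaxel and cisplatin). These values are from group means alone. The GC slope was above 0.1 in 4 of 6 male paclitaxel libraries and in 0 of 8 of male C26 saline. The paralogue of Rpl22, Rpl22l1, ran from 3.71 to 4.75 in male PBS and from 4.16 to 5.31 in male C26 saline, which overlap (0.44 ± 0.32, adjusted p = 0.348). The difference Rpl22l1 minus Rpl22 did not pass with C26 (0.06 in males and -0.09 in females, exact permutation tests, adjusted p = 0.802 and 0.929). It was lower in males with cisplatin, -2.68 ± 0.43 (n = 8) against -2.07 ± 0.25 (n = 8), with 7 of 8 libraries below all C26 saline libraries (exact permutation test, adjusted p = 0.00497), and with paclitaxel (-3.12 ± 0.69, n = 6, a difference of -1.04, exact test, adjusted p = 0.016). Without the libraries of high slope the cisplatin difference was -0.42 (exact test, adjusted p = 0.0213), and paclitaxel was at -0.21 (adjusted p = 0.509). With 5-fluorouracil the difference was -0.72 (exact test, adjusted p = 0.0526), and -0.20 without those libraries (adjusted p = 0.509).

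Rps27l, a p53 target, was not called with C26 in either sex (0.25 ± 0.14 and 0.04 ± 0.14) and fell only with male paclitaxel among the 8 comparisons (-0.51 ± 0.15, adjusted p = 0.00803). That fall was not called with the covariate (-0.18, adjusted p = 0.414). The difference Rps27l minus Rps27 passed in none of the 8 comparisons (exact permutation tests, adjusted p from 0.147 to 0.802), where the SD of a group reached 3.26. With Rps27rt added to Rps27 it was lower with C26 in females (-0.51, exact permutation test, adjusted p = 0.0488) and in males (-0.64, adjusted p = 0.0142), and higher in females with cisplatin (0.54, adjusted p = 0.021) and 5-fluorouracil (0.43, adjusted p = 0.0468).

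Rpl5 and Rpl11, which bind Mdm2 when ribosome assembly is disturbed, were not called with C26 in females (0.15 ± 0.25 and 0.44 ± 0.20) or males (-0.20 ± 0.24 and 0.31 ± 0.18). Rplp0, the base of the stalk and a common reference gene, was called in none of the 8 comparisons and came nearest with male paclitaxel (0.37 ± 0.15, adjusted p = 0.0506). Rpsa, which also serves as the laminin receptor, was called in none either, at -0.07 to 0.21. Rps4x, encoded on the X chromosome, rose with C26 in both sexes (0.38 ± 0.10 and 0.33 ± 0.10, adjusted p = 0.0137 and 0.00669). From group means alone, Rps27a fell with male paclitaxel (-0.57 ± 0.15, adjusted p = 0.00473) and male cisplatin and was not called with C26.

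Both subunits held members that rose with the tumour. In females 9 of 49 large-subunit and 2 of 33 small-subunit members rose, with medians of 0.39 and 0.37, beside 4.14% of all genes. In males 10 and 6 rose, with medians of 0.29 and 0.26, beside 13.1% of all genes. With male cisplatin 8 and 3 fell, with medians of -0.16 and -0.22, beside 8.23% of all genes. Whether the subunits differ in these counts was not tested. The 3 stalk proteins Rplp0, Rplp1 and Rplp2 had medians of 0.47 with C26 in females and 0.10 in males. Members with a near-identical copy had wider ranges (0.10 to 2.40 with C26 in females, where 2.40 is Rps27 alone) than those without (-0.20 to 0.67). The 47 of 82 members without a copy supplied 9 of the 11 female and 9 of the 16 male calls, the latter near their share of the members.

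Other genes of protein synthesis were followed in lists chosen beside the members. Of 23 other translation genes with TOP messages, 6 rose and 0 fell with C26 in females (median 0.28) and 12 rose and 1 fell in males (median 0.30). The rises are 26.1% and 52.2% of the list, beside 4.14% and 13.1% of all genes. Eef1a1, the main elongation factor, rose by 0.69 ± 0.11 in males (adjusted p = 1.43e-06), and Btf3, a subunit of the nascent polypeptide-associated complex, by 0.39 ± 0.08 in females (adjusted p = 0.000438) and 0.44 ± 0.07 in males. With the drugs in males 8, 8 and 7 of the 23 fell (5-fluorouracil, paclitaxel and cisplatin) and 1 rose in each, and in females 0, 0 and 3 fell. The male falls are 34.8%, 34.8% and 30.4% of the list, beside 12.0%, 18.5% and 8.23% of all genes. Of 32 ribosome biogenesis genes, 3 rose in females and 9 in males with C26 (9.38% and 28.1%, beside 4.14% and 13.1% of all genes), with 0 falling. Myc, the transcription factor that drives ribosome production, rose by 1.16 ± 0.24 in females (adjusted p = 0.000792) and 1.34 ± 0.23 in males (adjusted p = 4.47e-06), and fell by 1.15 ± 0.25 with cisplatin in females (adjusted p = 0.00543). In males 9, 9 and 6 of these genes fell with the 3 drugs (28.1%, 28.1% and 18.8%, beside the same shares of all genes as above), among them Gnl3, a nucleolar GTPase (-1.03 ± 0.21 with paclitaxel and -0.68 ± 0.19 with cisplatin). Of 8 chaperones that escort single ribosomal proteins, 0 were called with C26 in either sex. All counts and changes of these lists are from group means alone, and those with the GC slope as a covariate are not reported here. The slope exceeded 0.1 in 4 of 6 male paclitaxel and 0 of 8 male C26 saline libraries. With the covariate 1.92% of all genes fell in that comparison, in place of 18.5%.

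The 78 mitochondrial ribosomal proteins, which belong to a separate ribosome that translates the mitochondrial genome, were set beside the cytosolic ones. With C26, 0 rose and 1 fell in females (Mrpl45, -0.38 ± 0.11, adjusted p = 0.0227), and 1 rose and 12 fell in males (list median -0.13), led by Mrpl48 (-0.71 ± 0.10, adjusted p = 2.53e-07) and Mrpl19 (-0.69 ± 0.12, adjusted p = 4.33e-06). The male falls are 15.4% of the list, near the 13.0% of all genes that fell. With 5-fluorouracil in males 18 rose and 1 fell, with cisplatin 5 rose and 1 fell, and with paclitaxel 19 rose and 7 fell. The rises are 23.1%, 6.41% and 24.4% of the list, beside 11.3%, 7.66% and 13.5% of all genes, and the paclitaxel falls are 8.97%, beside 18.5%. These counts too are from group means alone, and those with the GC slope as a covariate are not reported here. Mrpl19 rose by 0.47 ± 0.12 with 5-fluorouracil and 0.58 ± 0.12 with cisplatin. In male muscle the cytosolic and mitochondrial lists thus had medians of opposite sign in the tumour comparison, 0.28 and -0.13; a test of that difference was not made.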

How the data were processed

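The authors deposited 1 table of normalized log2 expression values per gene and library, made from 150-bp paired-end reads of total RNA from gastrocnemius. Per the submitters' processing notes, the tools were limma, edgeR, Salmon, fastp, MultiQC and FastQC, with no version, and the build was mm39 (GRCm39). How low genes were dropped and libraries scaled is not stated there. From the values, each is log2 of an estimated count plus 0.5 over a scaled library size, and 85.0 to 90.7% of values came out within 0.02 of a whole count. Of 75 labelled samples, 73 were analysed: 1 female PBS library was not analysed here, and 1 female library (C26 saline replicate 8) was left out because its labels disagree.

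Group means of all 13856 genes were fitted with limma 3.58.1 in R 4.3.3 (lmFit, eBayes with a trend, 63 residual degrees of freedom, two-sided, Benjamini-Hochberg over all genes, threshold 0.05). The fit was tested on simulated data. Paralogue differences were tested by exact permutation over libraries, adjusted over 24 tests. The GC slope was the coefficient on standardised transcript GC content (GENCODE vM21), with log2 length beside it. Copies were found with blastn (BLAST+ 2.17.0).

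Named members were the 4 largest called rises and 4 largest falls of each main comparison, or the 2 smallest p where none was called, 3 paralogue pairs, 7 members fixed for their roles, the extremes of level, and up to 2 genes of each other list; other called members are listed after them, and 1 called member is not reported here by name. The members, lists and tests were chosen with earlier results of these data known. The labels give 1 batch value for all samples and do not say whether each library is a separate animal, so the tests compare spread between libraries, which may be technical. Replicate numbers did not pair the samples (deviations over all 13856 genes in 308 same-numbered pairs correlated with a median of 0.01, and in 2087 others of 0.00). Alternatives were other scalings, a pseudocount, a filter on low genes, the compared groups alone, quality weights, replicate number as a block, the GC slope, and leaving out each library.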

Additional observations from a re-analysis of the deposited data

Results flagged for a closer look

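A library was singled out where, in a group of 4 to 10, its gap to the nearest library exceeded Dixon's 95% critical value. Over 18 measures in 10 groups, 180 tests, chance gives about 1 in 20, and 16 were found. Of these, 7 belong to 1 library, female C26 saline replicate 7, with a GC slope of 0.46: Rpl3l (9.26), Rps27l (4.65), Rpl22l1 (1.65), Rps6 (6.91), Rpl5 (3.06), Rps27a (6.07) and the difference Rpl22l1 minus Rpl22 (-4.87). Female paclitaxel replicate 6 (GC slope 0.48) stood apart in Rps27l (4.58) and Rps6 (6.48), male cisplatin replicate 4 (0.55) in Rpl3l (9.53) and Rpl22l1 (2.61), and male 5-fluorouracil replicate 4 (0.53) in Rpl3l (9.55).

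The other 4 were in libraries of low slope. Male cisplatin replicate 6 (0.03) was high in Rps27 (5.44) and low in Rps27l minus Rps27 (-0.46). Male C26 saline replicate 3 (-0.08) was low in Rpl5 (3.06), and replicate 7 (-0.18) was low in Rps27a (6.19). No cause was tested for any of these values.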

How the results depend on the processing

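Counts of called members depended on how the GC slope and the quality of libraries were treated, and the members' median was above 0 with C26 in both sexes under every alternative but centring, which sets it near 0. The share of all genes called moved as well, and a percentage after a count is that share. With the slope as a covariate the counts were 56, 13.8% (female C26 against PBS; 11, 6.7% in the report), 50, 40.7% (male C26 against PBS; 16, 26.1%), 1, 3.05% (female 5-fluorouracil against C26 saline; 0, 1.35%), 13, 22.2% (male 5-fluorouracil; 8, 23.3%), 5, 3.59% (male paclitaxel; 20, 31.9%), 35, 28.6% (male cisplatin; 11, 15.9%), 36, 9.58% (female paclitaxel against PBS; 5, 4.58%), 2, 0.686% (female cisplatin against PBS; 0, 0.209%) and 2, 9.06% (male paclitaxel against PBS; 39, 37.5%). Without the libraries of high slope they were, in that order, 65 (11.9%), 53 (36.4%), 1 (1.81%), 3 (17.8%), 2 (5.21%), 36 (24.6%) and, for female cisplatin, 5 (6.54%), and against PBS 18 (female paclitaxel, 4.93%), 1 (male 5-fluorouracil, 0.245%) and 0 (male paclitaxel, 0.0722%). Quality weights gave 44 (14.8%) and 46 (36.7%) for C26, 6 (female 5-fluorouracil, 7.12%), 16 (female cisplatin, 16.8%) and 33 (male paclitaxel, 34.6%), against PBS 1 (2.81%), 39 (13.8%) and 2 (6.26%) in females and 46 (male 5-fluorouracil, 23.8%) and 2 (male cisplatin, 2.25%), and 22 for the paclitaxel interaction (26.8%) and 4 for sex in PBS (12.4%), where the report has 0. Rescaling to equal totals gave 6 (6.06%) and 35 (27.7%) for C26, 21 (male 5-fluorouracil, 30.2%) and 29 (male cisplatin, 22.3%), and fitting only the groups compared gave 25 (male C26, 29.2%), 4 (male 5-fluorouracil, 18.3%), 5 (male cisplatin, 7.42%) and 2 (female cisplatin, 4.82%). Quantile normalization gave 8 (5.43%) for female paclitaxel against PBS, and a mean log2 of at least 1, or added copies, 1 (5.87% and 4.82%) for male 5-fluorouracil against PBS. Centring on the member median left 4 (33.9%) and 4 (31.2%) for C26, 3 (male 5-fluorouracil, 11.2%), 2 (male cisplatin, 17.2%) and 2 (female paclitaxel against PBS, 26.3%). The cause was not tested.

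With replicate number as a block the counts were 12 (6.78%) and 19 (26.5%) for C26, 8 (male 5-fluorouracil, 24.2%), 28 (male paclitaxel, 38.2%) and 11 (male cisplatin, 16.4%), within 1.5 times of those reported. With block and slope they were 59 (14.1%), 52 (41.3%), 16 (24.2%), 13 (8.24%) and 39 (29.9%), and against PBS 39 (female paclitaxel, 9.89%), 2 (female cisplatin, 0.729%) and 2 (male paclitaxel, 7.3%).

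The sign of single members turned as follows. Centring turned Rpl22 (-0.046), Rps4x (-0.035) and Rpsa (-0.22) in female C26. In male paclitaxel Rpl13 was -0.14 with the slope, -0.22 without high-slope libraries and -0.14 with block and slope, Rpl41 -0.12, -0.0093 and -0.11, Rplp1 -0.14 with the slope and with block and slope, Rpl5 0.059 without high-slope libraries and 0.055 with block and slope, and Rpl11 -0.29 with block and slope (-0.21 in male 5-fluorouracil). Added copies turned Rps27 in male C26 (0.67) and Rps13 in male paclitaxel (0.040). Among 24 paralogue differences, added copies moved Rpl3l minus Rpl3 (0.48 and 0.30 in female 5-fluorouracil and cisplatin), Rpl22l1 minus Rpl22 (-0.72 in male 5-fluorouracil, now passing) and Rps27l minus Rps27 (-0.51, 0.43 and 0.54 in female C26, 5-fluorouracil and cisplatin, and -0.64 in male C26), and dropping high-slope libraries moved male paclitaxel (-0.21 for Rpl22l1 and 0.65 for Rpl3l).

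Leaving out each library gave 4 to 19 called members for female C26 (3.88 to 7.66% of all genes), 13 to 30 for male C26 (22.0 to 27.9%), 3 to 12 for male 5-fluorouracil (14.5 to 28.1%), 13 to 35 for male paclitaxel (17.0 to 39.4%), 8 to 12 for male cisplatin (10.7 to 19.4%), 0 to 1 for female 5-fluorouracil (0.491 to 1.69%), and against PBS 4 to 9 (female paclitaxel, 2.93 to 5.21%), 0 to 9 (male 5-fluorouracil, 1.39 to 11.0%) and 20 to 52 (male paclitaxel, 25.1 to 45.1%). Rpl22l1 minus Rpl22 in male 5-fluorouracil ran from -0.86 to -0.58. The lowest estimated counts of a member in a library were 9.64 for Rpl29, 14.4 for Rps27, 22.6 for Rps2 and 30.7 for Rpl3, so that counting error is largest for these.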
